A study of Mus musculus with 4 samples.

Results

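The genes described are the receptors, the ligand Igf2, the adaptors and the RNA-binding proteins of insulin-like growth factor (IGF) signalling in a mouse megakaryoblastic leukemia. They are the 10 genes Igf1r, Igf2, Igf2r, Insr, Irs1, Irs2, Grb10, Igf2bp1, Igf2bp2 and Igf2bp3. Members were taken as every probe set (a group of short DNA probes against 1 transcript) that the platform annotation pairs with 1 of these genes alone. This gave 27 of the 34945 one-gene probe sets, for 9 of the 10 genes among 18193 genes in all. No probe set used here was paired with Igf2bp2, so it has no value. The brightest probe set stands for its gene, and the others are given beside it.

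The 4 Affymetrix arrays held GFP-positive blasts, sorted through the GFP reporter with which a retrovirus had tagged the leukemic cells, from peripheral blood and from spleen of each of 2 mice. The blasts of all arrays descend from fetal progenitors with the mutant Gata1 allele named Gata1s, which were mutagenised by retroviral insertion, and they were taken from the animals without culture or treatment. Both mice carry the same leukemia designation, so all values describe 1 leukemia. No normal or Gata1 wild-type cells were measured, the age of the mice is not stated, and replicates differ only as these 2 animals do.

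IGF1R is a receptor tyrosine kinase that binds IGF1 and IGF2, and the insulin receptor INSR is its closest relative. Both phosphorylate the docking proteins IRS1 and IRS2, which pass the signal to PI3 kinase and AKT, while IGF2R takes up IGF2 for degradation and does not signal as a kinase. GRB10 binds the active receptors and dampens them, and the IGF2BP proteins bind mRNAs, among them that of IGF2, mainly in fetal tissue and in tumours.

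The promoters of Igf1r and Igf2bp3 are shown because Igf1r was the member whose mean intensity exceeded that of all background genes described below, and Igf2bp3 the RNA-binding member with probe sets bright enough to be tested; this choice was made after their values were seen. Each is the 250 bases before the annotated start in RefSeq, build GRCm38.p6, and capitals mark matches to the motifs named next. Igf1r lies at chr7:67952007-67952256 on the plus strand and Igf2bp3 at chr6:49214955-49215204 on the minus strand.
Igf1r: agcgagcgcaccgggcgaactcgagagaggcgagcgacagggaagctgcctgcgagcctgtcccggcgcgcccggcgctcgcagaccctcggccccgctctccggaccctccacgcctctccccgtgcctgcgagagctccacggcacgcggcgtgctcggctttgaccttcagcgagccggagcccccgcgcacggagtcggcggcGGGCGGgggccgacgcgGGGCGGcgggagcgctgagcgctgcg
Igf2bp3: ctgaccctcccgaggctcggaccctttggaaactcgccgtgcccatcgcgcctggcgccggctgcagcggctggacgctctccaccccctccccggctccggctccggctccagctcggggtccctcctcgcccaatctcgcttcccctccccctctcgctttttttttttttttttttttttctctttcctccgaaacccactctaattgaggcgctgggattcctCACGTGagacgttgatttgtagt

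The Igf1r stretch held 42 CpG dinucleotides, more than 99.1% of the 32851 promoters of the table, whose median was 6, and the Igf2bp3 stretch held 21. Motifs were searched on both strands. GGGCGG, the GC box of Sp1, matched the Igf1r stretch at 2 places that did not overlap, and was found in 32.7% of all promoters. CACGTG, an E-box, matched Igf2bp3 once, and was found in 6.02% of all promoters. AGATAA, a core that GATA factors bind, and the TATA box motif TATAAA matched 0 of the 12 promoter entries of 8 members, and were found in 9.99% and 12.4% of all promoters. These are matches of letters in a window and say nothing about binding in these cells.

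The arrays were alike as a whole: median intensities lay between 103.7 and 110.6, and pairs of arrays correlated between r = 0.96 and r = 0.98 across the tested genes, which are not independent replicates. Of 10 measured markers of the labelled megakaryocyte lineage, 9 reached the brightness filter used for testing, a mean intensity of 108.0, with Pf4 between 7507 and 8680, while Itgb3 was below it and read -4.17 in mouse 2 blood. The filter alone does not mark a lineage, since 8 of 10 granulocyte genes, 8 of 9 T and NK cell genes and 12 of 28 genes of other organs also reached it. The megakaryocyte genes summed to 21318 and 24738 in mouse 1 (blood, then spleen) and to 20808 and 25776 in mouse 2. Of the 9 tested, 8 were higher in spleen in both mice, beside 38.5% of all tested genes, and 0 passed the adjustment over all genes. The summed intensity of 10 granulocyte genes was 6275 in mouse 1 blood and 3665 in mouse 1 spleen, and 15924 and 929 in mouse 2. The 9 T and NK cell genes summed to between 5173 and 10166 and the 9 macrophage genes to between 887 and 3027, both lists with their maximum in mouse 2 blood and their minimum in mouse 2 spleen. The 6 erythroid genes summed to between 3945 and 4328 and the 9 genes of stroma and endothelium to between 2405 and 3438, most of it from Col1a2, at a mean of 2304. Of the 6 B cell genes, 5 were below the filter, while C1qa was below 0 on 3 arrays and Camp in spleen of mouse 2. Of the 9 macrophage genes, 4 had their maximum in mouse 2 blood. C1qa, C1qb and C1qc, with means below the filter, were instead highest in mouse 1 spleen, at 132, 273 and 231. The blasts had been sorted for GFP, and whether these transcripts came from other cells or from the blasts was not tested. In bulk RNA, fewer cells of a type and less RNA per cell cannot be told apart.

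The mean intensity of Igf1r exceeded that of all 28 genes of other organs that were picked as a measure of background. The means of the other 8 measured members did not. The 28 genes (liver, heart, brain, skin, testis and others), represented in the same way, had mean intensities between -7.22 and 365, with a median of 87.1. Igf1r, at 1341 ± 105 (SD, n = 4 arrays), exceeded all 28, the brightest of which was the sperm protamine gene Prm1. Igf2bp3, at 338 ± 29.9, and Insr, at 321 ± 33.7, were each exceeded by 2 of the 28. Igf2r was at 272 ± 21.5, exceeded by 3, and Igf2 at 153 ± 18.1, exceeded by 7. The other 4 measured members were below the filter: Grb10 at 63.8 ± 9.70, Igf2bp1 at 59.3 ± 14.7, Irs1 at 47.2 ± 3.55 and Irs2 at 0.83 ± 3.05. Probes differ in brightness, so these figures set each gene against the range of background and do not rank the members against each other.

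**Figure D1:**
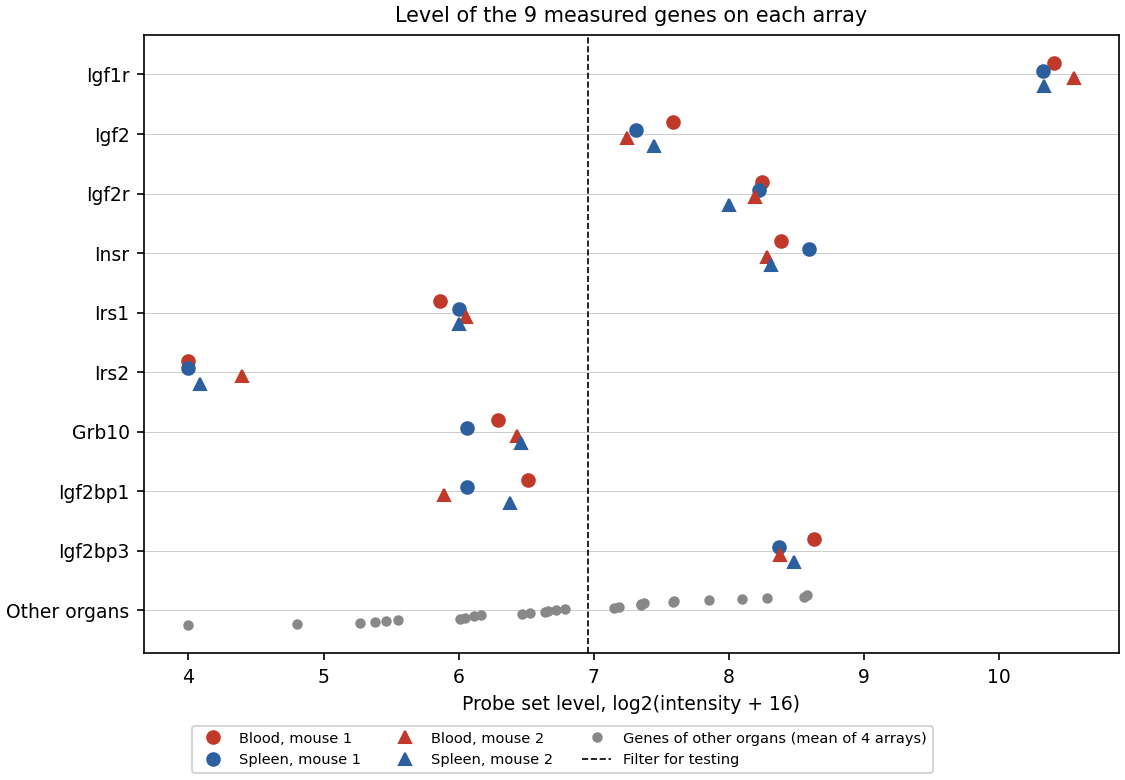
Level of the 9 measured genes on each of the 4 arrays, as log2(intensity + 16) with values below 0 set to 0; red is blood, blue is spleen, circles are mouse 1 and triangles mouse 2. Grey points are the 4-array means of 28 genes of other organs, and the dashed line is the filter of 108.0; all 4 points of Igf1r lie to the right of every grey point, as do 1 point of Igf2bp3 (380, mouse 1 blood) and 1 of Insr (370, mouse 1 spleen).

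The comparison of spleen with blood asked whether blasts at the 2 sites differed in these genes. No tested member was called different, and 4 measured members were not tested. With 2 arrays per tissue, a lack of calls does not show that the members were equal at the 2 sites. Of the 9 measured members 5 passed the filter and were tested, with limma on all 11618 genes that passed it and Benjamini-Hochberg adjustment, and 0 of the 5 had an adjusted p under 0.05. Over all genes 0% were called, and 1437 had an unadjusted p under 0.05 (12.4%, with 8.06% higher and 4.31% lower in spleen), while of the members 0 did. Without spleen replicate 1, limma called 11 genes and without spleen replicate 2 it called 2, none of them a member. The 95% intervals of the 5 tested members all lay between -0.44 and 0.46 on the log2(intensity + 16) scale. A 2-fold difference on this scale therefore lay outside each of them, as it did for 95.7% of all tested genes. For the tested members other than Igf1r, whose means lay within the range of the organ genes, this does not bound the difference in transcript. An exact permutation test of a single value cannot go below p = 0.333 with 2 arrays per tissue. The p-values rest on the spread between these animals and on a variance that limma draws toward that of all tested genes. They measure nothing beyond these animals and arrays.

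Of the receptors, Igf1r read 1340 in mouse 1 blood, 1264 in mouse 1 spleen, 1490 in mouse 2 blood and 1269 in mouse 2 spleen. Both spleen arrays were below both blood arrays, a pattern found in 17.7% of all tested genes. The difference of spleen minus blood was -0.16 ± 0.12 (SE, 2 arrays per tissue), with an adjusted p = 0.617 by limma. Within the mice it was -0.08 in mouse 1 and -0.23 in mouse 2. The blood array of mouse 2, where Igf1r was highest, is also the one with the highest sum of granulocyte markers. The megakaryocyte sums were higher in spleen than in blood of both mice, opposite to Igf1r. The 2 spleen arrays were nearly equal on this brightest probe set of Igf1r, while their granulocyte sums were 3665 and 929. On every other Igf1r probe set mouse 2 spleen was below mouse 1 spleen, with differences of -0.43, -0.04, -0.14 and -0.55. The part of either marker list in the Igf1r values was not tested.

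Igf1r had 5 probe sets, of which 4 reached the filter; the mean difference was below 0 on all 4, and 3 of them were lower in spleen in both mice. The second brightest read 922 and 968 in mouse 1 (blood, then spleen) and 970 and 716 in mouse 2, so that the tissues overlapped and differed in opposite ways in the mice. The third read 888 and 805, and 930 and 780, and the fourth 305 and 261, and 302 and 235. In these last 2, as in the brightest, spleen was below blood without overlap, which held for 17.9% of single probe sets. With each probe set fitted by itself over 18952 probe sets, the largest of these differences was -0.28 ± 0.12, unadjusted p = 0.057 and adjusted p = 0.373 by limma. That difference belongs to the fourth probe set, whose mean of 276 lay within the range of the organ genes. The fifth probe set of Igf1r was dim, at 62.2 ± 12.4 on average.

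Igf2r, which clears IGF2 from the cell surface, read 288 and 283 in mouse 1 (blood, then spleen) and 276 and 241 in mouse 2. Its difference was -0.10 ± 0.13, with an adjusted p = 0.769 by limma, and the tissues overlapped. Both arrays of mouse 2 were below both of mouse 1, as in 18.2% of all tested genes. Its other probe set read 197 and 241, and 224 and 218, with a difference of 0.12 ± 0.13, so the 2 probe sets of Igf2r disagreed in sign. With arrays centred on their medians Igf2r was no longer lower in both mice, and with the mean of both probe sets its difference was 0.0069. A further probe set is paired with both Igf2r and Airn, the RNA transcribed across Igf2r in the opposite direction, and was left out.

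Insr, the insulin receptor, was the tested member with the higher value in spleen of both mice. It read 319 in mouse 1 blood and 370 in mouse 1 spleen, and 296 and 302 in mouse 2. The difference was 0.12 ± 0.14, with an adjusted p = 0.764 by limma. The arrays of Insr separated by animal and not by tissue, with mouse 2 below mouse 1 throughout, as in 18.2% of all tested genes. Its other 2 probe sets were below the filter, at 59.3 ± 10.4 and 16.5 ± 3.29.

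The ligand Igf2, a growth factor of fetal life, read 177 and 143 in mouse 1 (blood, then spleen) and 136 and 158 in mouse 2. The tissues differed in opposite ways in the mice, by -0.27 and 0.20, and the mean difference was -0.04 ± 0.15, with an adjusted p = 0.940 by limma. Its second probe set was dim, at 44.0 ± 9.79. Both probe sets lie within the range of the organ genes, so no level of Igf2 above background was shown by these arrays.

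The docking proteins and the brake Grb10 were dim on every probe set. Irs1 had 1 probe set, which read 42.1 and 48.1 in mouse 1 (blood, then spleen) and 50.4 and 48.2 in mouse 2. Irs2 also had 1, which read -1.24, -1.52, 5.07 and 1.02 in the same order, at the bottom of the scale on every array. The brightest of 3 probe sets of Grb10 read 62.3 and 50.8 in mouse 1 and 70.2 and 72.1 in mouse 2, and the other 2 averaged 44.9 and 27.6. A probe set at background can mean a low transcript level or a probe that responds poorly, and these arrays do not separate the 2. These genes were left out of the main test. With no filter on dim genes limma gave adjusted p-values of 0.925 for Irs1, 0.807 for Irs2 and 0.885 for Grb10. The difference of Irs2 moved with the offset: it was -0.15 with an offset of 16 and -0.43 with an offset of 4.

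Of the RNA-binding proteins, Igf2bp3 had 3 of 6 probe sets at or above the filter, and Igf2bp1 had 0 of 4. As 12 of the 28 organ genes also reached the filter, this does not place Igf2bp3 above background. The brightest probe set of Igf2bp3 read 380 in mouse 1 blood and 315 in mouse 1 spleen, and 317 and 341 in mouse 2. The tissues overlapped, and the difference was -0.08 ± 0.13, with an adjusted p = 0.845 by limma.

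The next 2 probe sets of Igf2bp3 had spleen below blood in both mice without overlap. One read 368 and 318 in mouse 1 and 321 and 277 in mouse 2, and the other 205 and 178, and 233 and 191. Their differences, fitted by themselves, were -0.20 ± 0.14 and -0.23 ± 0.13, with adjusted p-values of 0.546 and 0.468 by limma. Of its 3 dim probe sets, a probe set at 38.2 on average also had spleen below blood, a probe set at 11.9 had spleen above blood, and the last was below 0 on all 4 arrays. Igf2bp1, its fetal relative, had means of 59.3, 12.5, 5.90 and 4.65 on its 4 probe sets, and the brightest read 75.5 and 50.9 in mouse 1 and 43.4 and 67.3 in mouse 2, with no order by tissue or by animal.

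**Figure D2:**
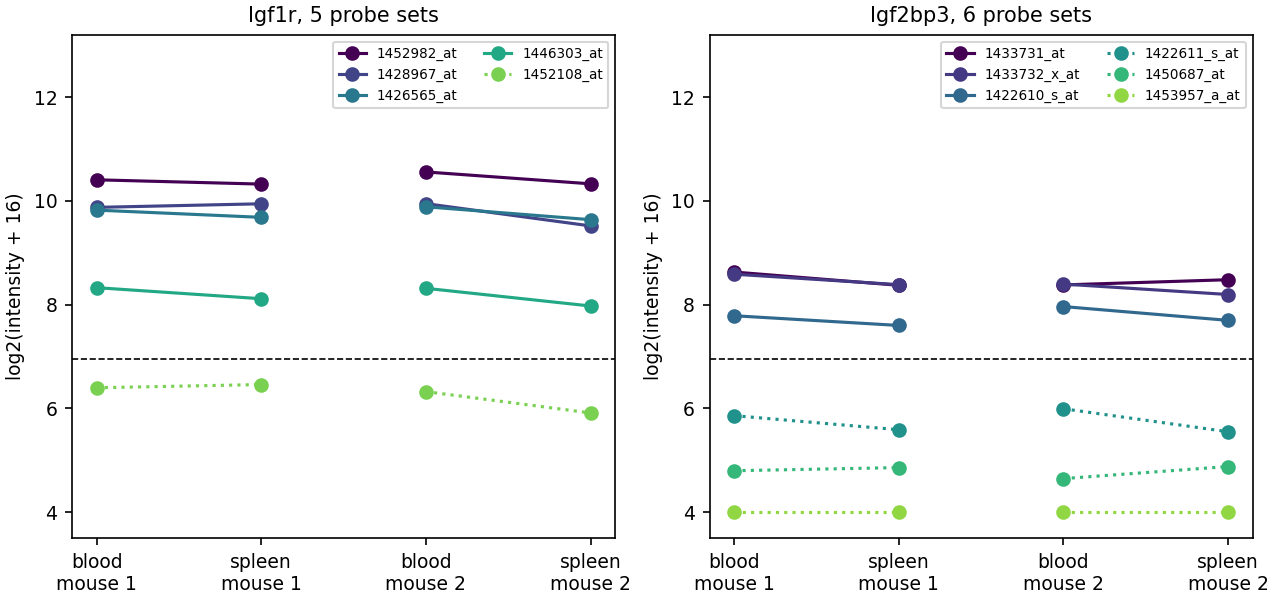
All probe sets of Igf1r (left, 5) and Igf2bp3 (right, 6) on the 4 arrays, as log2(intensity + 16); lines join blood and spleen of the same mouse, solid for probe sets at or above the filter (dashed line at 108.0) and dotted below it. Lines slope down from blood to spleen in both mice for 3 of 4 solid probe sets of Igf1r and for 2 of 3 of Igf2bp3.

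Over all 27 probe sets, 11 reached the filter, and 5 of the 11 had both spleen arrays below both blood arrays, which held for 17.9% of single probe sets, while 0 had them above, which held for 28.7%. All 5 belong to Igf1r and Igf2bp3, and probe sets of 1 gene measure the same RNA, so these are 2 genes and not 5 observations. Of the 11, 6 were lower in spleen in both mice, as were 25.3% of single probe sets. The largest within-mouse difference among the 11 was 0.43 in size, for a probe set of Igf1r in mouse 2. By gene, with the brightest probe set, Igf1r and Igf2r were lower in spleen in both mice, as 25.2% of all tested genes were, and Insr was higher, as 38.5% were. Igf2 and Igf2bp3 differed in opposite ways in the mice, as did 36.3% of all tested genes. The median difference of the 5 tested members was -0.08, beside 0.03 over all tested genes.

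**Figure D3:**
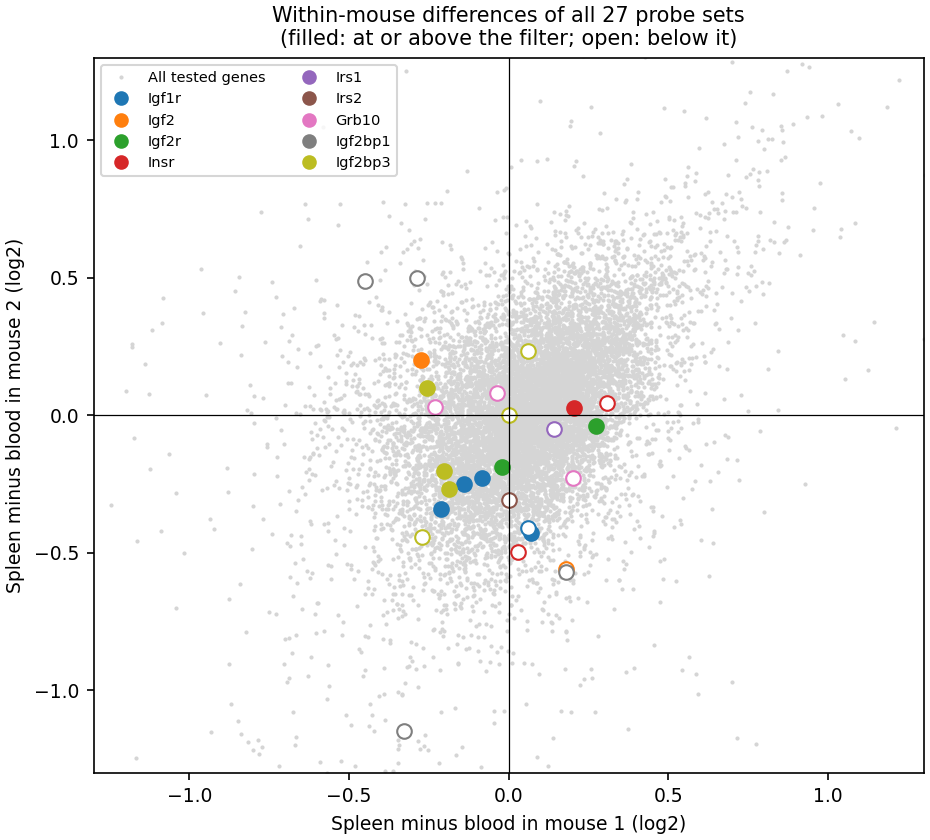
Difference of spleen minus blood (log2) in mouse 1 on the x axis and in mouse 2 on the y axis, for the 27 probe sets of the members in colour and for all 11618 tested genes in grey; some grey points lie beyond the axes. Filled points reached the filter and stay within 0.43 of 0 in both mice, and the farthest open point is a probe set of Igf2bp1 with a mean of 5.90.

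The partners of these genes were described through 5 lists. In the whole of the lists 0 genes passed over all genes with limma, so the counts that follow are of unadjusted p-values under 0.05 beside 12.4% of all tested genes. Of the ligands and binding proteins, 9 of 13 genes were tested and 0 had such a p. The ligand Igf1 read between 32.2 and 39.3 and was below the filter. Igfbp7 and Igfbp6, which bind IGFs outside the cell, were slightly higher in spleen in both mice, by 0.16 ± 0.13 and 0.12 ± 0.17. The protease Htra1, which cleaves binding proteins, differed by -0.30 ± 0.16, with -0.55 in mouse 1 and -0.05 in mouse 2.

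Among adaptors and brakes next to the receptors, 18 of 22 were tested, and 3 had an unadjusted p under 0.05. Sos1, the exchange factor that activates Ras, read 150 and 197 in mouse 1 (blood, then spleen) and 150 and 248 in mouse 2, a difference of 0.51 ± 0.14 (unadjusted p = 0.011, adjusted p = 0.302, limma). Gab1, a docking protein, was higher in spleen by 0.33 ± 0.13 and Ptpn1, a phosphatase that acts on INSR and IGF1R, differed by -0.32 ± 0.13, with adjusted p-values of 0.401 and 0.395. Sh2b1, which promotes receptor signalling, differed by -0.24 ± 0.12. Of the 22 genes with a value, 13 exceeded all 28 organ genes, among them Grb2, Shc1, Gab1, Ptpn11 and Nedd4.

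The PI3 kinase and AKT arm had 23 tested genes and 0 with an unadjusted p under 0.05. Its median difference was -0.0052. Akt1 read between 2960 and 3295, with a difference of -0.03 ± 0.12, and 14 of 24 genes with a value exceeded all organ genes. Rictor, a subunit of the mTOR complex that phosphorylates AKT, differed by -0.36 ± 0.15, Inppl1, a lipid phosphatase, by -0.21 ± 0.12, and Tsc2, which restrains mTOR, by 0.18 ± 0.11. The probe sets of Rictor disagreed: the second brightest read 243 and 271 in mouse 1 and 232 and 236 in mouse 2, higher in spleen, while the next 2 were lower in spleen in both mice.

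Of the targets of FOXO factors, which AKT keeps out of the nucleus, 11 were tested. Txnip, an inhibitor of thioredoxin and of glucose uptake, read 4739 and 3188 in mouse 1 (blood, then spleen) and 4802 and 2338 in mouse 2. Its difference was -0.80 ± 0.17 (unadjusted p = 0.0034, adjusted p = 0.217, limma), and its second probe set also had spleen below blood in both mice. Klf2 differed by -1.97 ± 0.59, with -0.63 in mouse 1 and -3.32 in mouse 2, and Ccng2, a cyclin of quiescent cells, by 0.33 ± 0.11. These 3 carry the unadjusted p-values under 0.05 of the list, 1 higher and 2 lower, and their adjusted p-values lay between 0.217 and 0.358. Of the 11, 7 were lower in spleen in both mice, beside 25.2% of all tested genes, and 3 were higher, beside 38.5%. The median difference of the list was -0.18. In a list of 10 immediate early genes, taken up because earlier results showed it to differ, 8 were tested and all 8 were lower in spleen in both mice, beside 25.2% of all tested genes. Their median difference was -1.64, with Nr4a1 at -0.08, and 0 of the 8 passed the adjustment by limma. Klf2, Fos and S100a9 all had their maximum in mouse 2 blood and their minimum in mouse 2 spleen. Their part in the Klf2 and Txnip values was not tested.

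Of the proteins that work with IGF2BPs on mRNA, and of their targets, 9 of 15 were tested. Syncrip, Ybx1, Hnrnpu and Dhx9, which form a complex with IGF2BP1 on mRNA, differed by 0.0036 ± 0.11, 0.04 ± 0.11, -0.01 ± 0.11 and 0.09 ± 0.12. These are the brightest probe sets, and others of Syncrip and Hnrnpu disagreed with them. The second brightest of Syncrip read 1496 and 1745 in mouse 1 and 1259 and 1470 in mouse 2, higher in spleen. Its dimmest read 403 and 385, and 457 and 395, lower in spleen. The second brightest of Hnrnpu read 4977 and 5396, and 4952 and 5320, while its dimmest read 394 and 307, and 422 and 317. Elavl1, which stabilises mRNAs, read 1701 and 2239 in mouse 1 and 1746 and 2423 in mouse 2, a difference of 0.43 ± 0.11 (unadjusted p = 0.0093, adjusted p = 0.287, limma). Its other probe sets above the filter disagreed: the second brightest was higher in spleen in both mice, the third read 833 and 846 in mouse 1 and 759 and 741 in mouse 2, and the fourth read 121 and 113, and 145 and 85.8, lower in spleen. Cd44, an adhesion receptor whose mRNA IGF2BPs bind, differed by -0.31 ± 0.12, with an adjusted p = 0.401. Dicer1, which makes microRNAs, differed by 0.04 ± 0.15. Lin28b, another fetal RNA-binding protein, read between -6.72 and 3.96. For scale, a list of mitosis genes was taken up as the immediate early genes were, with earlier results of these data known. Its 9 tested genes had a median difference of 0.83 and were higher in spleen in both mice, beside 38.5% of all tested genes. Of the 9, 0 passed the adjustment by limma. None of the 5 tested members reached a difference of that size.

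**Figure D4:**
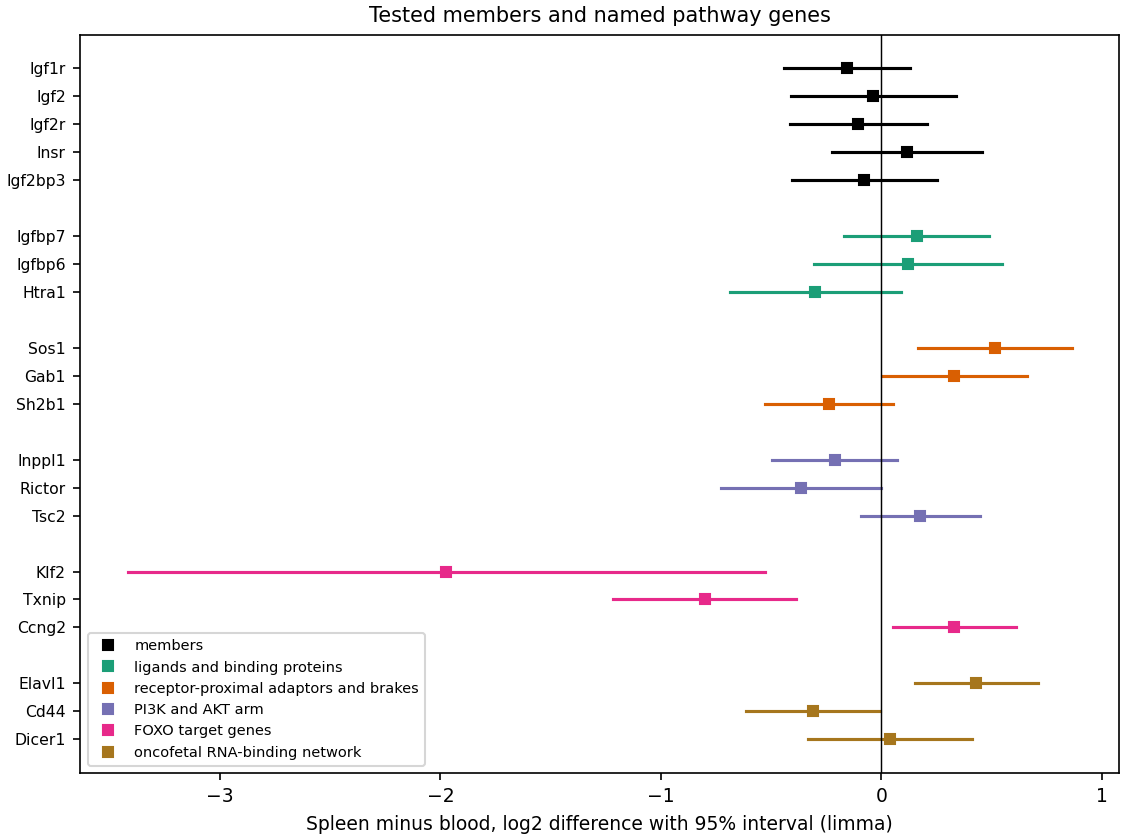
Difference of spleen minus blood (log2) with its 95% interval from limma, for the 5 tested members in black and for 3 genes of each of 5 pathway lists in colour, chosen by the size of their smaller within-mouse difference. The intervals of the members all span 0 and stay between -0.44 and 0.46, and none of the genes drawn passed the adjustment over all genes.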

How the data were processed

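The authors deposited 1 table of probe set intensities on a linear scale for 45101 probe sets and 4 arrays. Their summary, background and scaling methods are not given in the sources used here. Per the labels' protocols, biotinylated cRNA was made from Trizol-extracted total RNA. The values were floored at 0 (1.60% to 2.17% of an array lay below it) and put on the log2 scale with an offset of 16, which understates differences of dim genes. Symbols came from the platform annotation, updated by Entrez identifier with RefSeq GRCm38.p6, which held 34741 of 34945 one-gene probe sets; 932 were paired with several genes. Genes with a mean intensity at or above 108.0, the median of all probe sets, were tested with limma 3.58.1 in R 4.3.3 (lmFit, eBayes, two-sided, tissue as sole term), checked on simulated data. Errors are SDs for intensities and SEs for differences. The number of arrays limits the precision.

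Mouse numbers pair the arrays, since the labels name the same animal for both tissues; the difference between the mice in blood and that in spleen correlated at r = 0.08 across genes. Members and lists were chosen with earlier results of these data known. Named were all members and 3 tested genes of each pathway list. These 3 differed most, by the smaller of their 2 within-mouse values, where both had 1 sign. Pf4, S100a9 and Col1a2 were the brightest of their marker lists, and the brightest of the other marker lists were not named. Other genes, among them dim markers such as C1qa, Camp and Itgb3, are examples chosen after their values were seen.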

Additional observations from a re-analysis of the deposited data

How the results depend on the processing

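In 13 other settings and 2 more chosen after seeing the data, 0 members were called. The count of genes called over all genes was 0 in the settings that kept all 4 arrays and from 0 to 11 when 1 array was left out. With mouse as a replicate block, 0 genes were called and the member adjusted p-values lay between 0.504 and 0.917. Members lower in spleen in both mice numbered 2, but 1 with centred arrays and 5 with the mean of all probe sets (Igf1r, Igf2, Grb10, Igf2bp1 and Igf2bp3). Members higher in both mice numbered 1, but 2 with quantile normalization, 2 with centred arrays and 0 with the mean of all probe sets. These counts need both arrays of each mouse and were not run with an array left out. Igf1r kept its direction in all 14 settings in which it was fitted as a gene, from -0.23 to -0.08 with an array left out. Directions turned for the other 4 tested members. Igf2 was at 0.0023 with quantile normalization, 0.0073 with centred arrays, 0.14 without blood of mouse 1 and 0.03 without spleen of mouse 1, and its lowest value with an array left out was -0.21. Igf2r was at 0.0069 with the mean of all probe sets and 0.0072 without spleen of mouse 2, and otherwise down to -0.22 with an array left out. Insr was at -0.024 without spleen of mouse 1, and up to 0.26 with an array left out. Igf2bp3 was at 0.046 without blood of mouse 1, and down to -0.20 with an array left out. The cause of these turns was not tested. Signal over background limits all measured members but Igf1r, since at least 2 of 28 organ genes were brighter than each of them.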

Other observations

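Among the pathway genes that are no members, Irs4, Igfbp5 and Igfals were picked out after their values were seen. Irs4, a docking protein related to Irs1 and Irs2, read 1159 in mouse 1 blood and 1092 in mouse 1 spleen, and 842 and 847 in mouse 2, above all 28 genes of other organs. Both arrays of mouse 2 were below both of mouse 1, as in 18.2% of all tested genes. The differences of Irs4 were -0.45 in blood and -0.36 in spleen, with 1 animal per side and no test. Its second probe set averaged 11.5, so the 2 probe sets of Irs4 differ widely in brightness.

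The binding protein Igfbp5 also had probe sets that differ widely. It read 1020 and 839 in mouse 1 (blood, then spleen) and 753 and 770.5 in mouse 2 on one probe set, and averaged 10.6 on the other. Igfals, which carries IGFs in the circulation, had 1 probe set, which read 676, 695, 634 and 940 in the same order, highest in spleen of mouse 2.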
